A study of Danio rerio with 7 samples.

Results

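Clustered protocadherins are cell adhesion proteins of neurons whose genes stand in tandem rows. In the alpha and gamma clusters known from mammals, each gene brings its own promoter and a large variable exon, which encodes the extracellular cadherin repeats and the membrane span, and its transcript is spliced to short constant exons shared by the whole cluster. A neuron uses a small choice of these genes, and the proteins bind copies of themselves on other membranes, which in mice serves self-recognition and self-avoidance of branches. Zebrafish carry a pair of such arrays, named pcdh1 and pcdh2.

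The members were the rows of the deposited gene table named pcdh1a followed by a digit, pcdh1g or pcdh2, with at least 10 counts summed over the libraries. That naming rule found 48 of 30421 rows. It took in as well pcdh20, which the RefSeq gene table of GRCz12tu places on chromosome 11 as a separate protocadherin gene, so the 47 rows of the arrays are described here and pcdh20 is given with the non-clustered genes. By that rule the pcdh1 array held 18 members (3 alpha, 15 gamma) and the pcdh2 array 29 (14 alpha, 15 gamma). Rows under other names were not examined for membership, so the arrays may be incomplete. All 47 passed the filter on low counts, and their counts summed over the libraries ran between 164 for pcdh2g7 and 2623 for pcdh1g11. In that RefSeq table, which matched 43 of the 47 symbols and is not the build named by the submitters, the pcdh1 members lie on chromosome 10 and the pcdh2 members on chromosome 14. Chromosome 14 is the one to which the design text reports linkage of the mutant phenotype, and 8 genes of the table separate the pcdh2 array from spock1, the gene named there. Whether the genotypes differ in DNA sequence along the pcdh2 array was not tested. Such a difference and a change in RNA level cannot be told apart in these counts.

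Bulk RNA-seq of pooled larval heads (Danio rerio, 5 days after fertilization) gave 3 libraries of the hm41 mutant line (69, 70 and 71) and 3 of wild type (WT) siblings (66, 67 and 68). The hm41 line is called leaky by the submitters, and the series concerns the blood-brain barrier. The labels do not give the zygosity of the mutants, the strain, the number of larvae in a pool or whether the pools came from separate clutches, so p-values measure the spread between these pools. The remaining sample of the 7 in the series, made from single cells of both genotypes at more than 1 age, was not analysed here.

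Total counts ran between 33775984 and 114604258 per library, but 6 rows with over 1% of the counts of a library held 92.9% to 94.8% of them, which left 1888472 (WT 67) to 5937238 (WT 66) counts for all other genes. The clustered protocadherins were therefore measured at low depth. Levels are given as normalised counts, that is, counts divided by the library total scaled by the trimmed mean of M-values (TMM) method and multiplied by 61277829, the mean of the scaled totals. Counts are not divided by transcript length, so a level is compared between genotypes for the same gene and not between genes. A check of the labels was sought in spock1. It had 135, 102 and 83.8 normalised counts in hm41 69, 70 and 71. In WT 66, 67 and 68 it had 171, 123 and 119.6. The groups overlap, and the log2 fold change was -0.38 ± 0.231 (SE, adjusted p = 0.594, edgeR). The level of spock1 therefore does not check the labels, which are taken as given. As a check of the tissue, 14 of 15 neuron markers had counts, while gap43 was at 0 in all libraries.

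How reads were divided among the members limits each value. Of the 47 members, 42 had a deposited count that was not whole in any of the 6 libraries (tolerance 1e-09), against 15.3% of all tested genes and 0 of the 17 non-clustered protocadherin genes. In estimates of this kind, a count that is not whole comes from reads divided among several genes, so values of single members are uncertain to that extent. The rows pcdh2ab6 and pcdh2ab7 held identical values in every library, and so did pcdh2g28 and pcdh2g29, so the 47 rows hold 45 distinct sets of values. Reads divided among members would link further rows, so these are not 45 independent measurements. Each pair is described once below, but both of its rows enter the sums, shares, medians, correlations and counts of rows, unless a count is said to take identical rows once.

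The summed levels of both arrays differed little between the genotypes. The pcdh1 members together had 2794 ± 327 normalised counts in hm41 heads and 2599 ± 202 in WT heads (SD, n = 3 each), a log2 ratio of the sums of 0.10. The pcdh2 members together had 2976 ± 266 in hm41 heads and 2929 ± 448 in WT heads, a log2 ratio of 0.03. Both differences are smaller than the spread between libraries, which was 0.146 and 0.188 (pooled SD of the log2 sums). In whole heads, fewer cells of a type and less RNA per cell cannot be told apart.

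Of the alpha and gamma groups, pcdh1 alpha had the largest ratio of the sums. Its 3 members summed to 363, 487 and 388 normalised counts in hm41 69, 70 and 71 and to 381, 283 and 331 in WT 66, 67 and 68, a log2 ratio of 0.31 against a pooled SD of 0.218. The genotypes overlap there. The pcdh1 gamma group summed to 2382 ± 336 in hm41 and 2267 ± 196 in WT, the pcdh2 alpha group to 1330.2 ± 178 in hm41 and 1361 ± 221 in WT, and the pcdh2 gamma group to 1646 ± 143 in hm41 and 1568 ± 228 in WT (SD, n = 3 each), each within the spread between libraries. The pcdh2 array held 51.6% ± 0.726 of the counts of both arrays in hm41 libraries and 52.8% ± 2.02 in WT libraries, and the gamma group 55.4% ± 3.08 of the pcdh2 array in hm41 and 53.6% ± 0.604 in WT. Scaling by library totals alone moves the median of all genes by 0.22 on the log2 scale. With it the log2 ratios were 0.55 for pcdh1 alpha, 0.30 for pcdh1 gamma, 0.21 for pcdh2 alpha, where the sign turned from -0.03, and 0.31 for pcdh2 gamma. These sums were not tested, because the members were chosen with results of these data known.

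**Figure D1:**
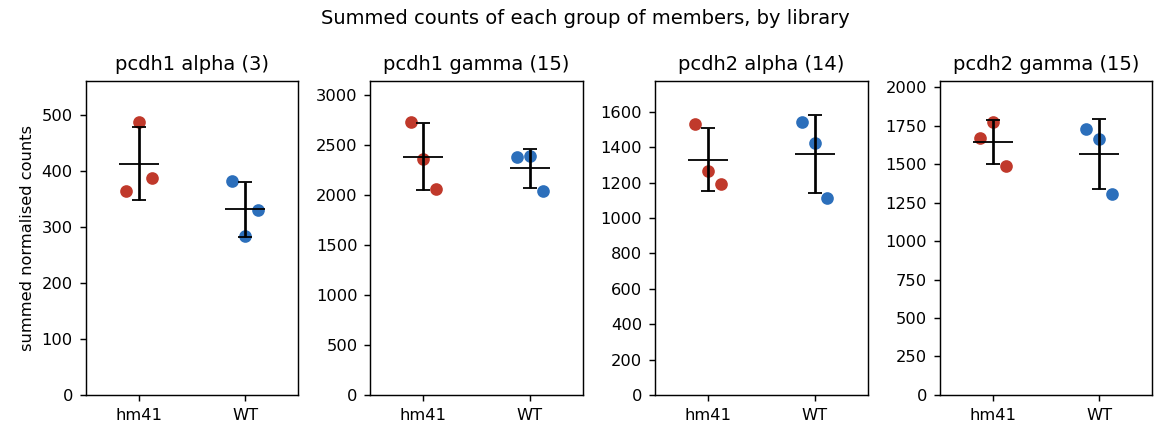
Summed normalised counts (y axis, from 0) of the pcdh1 alpha, pcdh1 gamma, pcdh2 alpha and pcdh2 gamma members, with the number of members in parentheses. Each point is a library, with hm41 in red at the left and WT in blue at the right, and the black bars give the mean ± SD of 3 libraries. The genotypes overlap in all 4 groups.

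Clustered protocadherins are neuronal genes, so the neuron markers are set beside them. The 15 neuron markers in the table summed to 12078 to 15483 normalised counts in hm41 libraries and 9346 to 10397 in WT libraries, without overlap. The part of this difference in the protocadherin values was not tested.

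Of the single members, 1 passed the test over all genes. By edgeR's quasi-likelihood test 1 of the 47 members, pcdh2g17, was called at a false discovery rate of 0.05, against 11 of 19275 genes or 0.0571% over all genes tested (3 or 0.0156% higher and 8 or 0.0415% lower). With library totals alone, 3 members were called higher and 2 lower, and over all genes 32 were called higher and 15 lower. The unadjusted p was under 0.05 for 14 of the 29 pcdh2 members, 7 higher and 7 lower, and for 3 of the 18 pcdh1 members, 1 higher and 2 lower, while 10.4% of all tested genes passed (5.35% higher, 5.05% lower). That is 48.3% of the pcdh2 and 16.7% of the pcdh1 rows, and 13 of 27 in the pcdh2 array when identical rows count once. With library totals alone the split was 8 higher and 3 lower in the pcdh2 array, 4 higher and 0 lower in the pcdh1 array, and 1782 higher and 166 lower over all genes. By DESeq2 the unadjusted p was under 0.05 for 41.4% of the pcdh2 and 5.56% of the pcdh1 members, against 5.99% of 27742 genes. Those genes include rows of low count left out of the edgeR test, whereas all 47 members passed that filter. Of the pcdh2 members 9 had no overlap between the genotypes and of the pcdh1 members 3, that is 31.0% and 16.7%, against 16.5% of all tested genes, and in the pcdh2 array 8 of 27 when identical rows count once (all genes 8.09% with hm41 above, 8.44% with hm41 below). Over both arrays, 7 members had hm41 above and 5 had hm41 below WT. Apart from pcdh2g17, these members did not pass the adjusted threshold.

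The pcdh2 fold changes were centred near 0 and widely spread. The median log2 fold change was -0.04 over the pcdh2 members and 0.17 over the pcdh1 members, against -0.02 over all tested genes. The median absolute log2 fold change was 0.56 in the pcdh2 array and 0.34 in the pcdh1 array, against 0.25 over all tested genes. The standard deviation of the log2 fold changes was 0.82 in the pcdh2 array and 0.54 in the pcdh1 array, against 0.44 over all tested genes. The median standard error of a fold change was 0.278 in the pcdh2 array, 0.247 in the pcdh1 array and 0.288 over all tested genes. These are descriptions of the arrays, and the difference between the arrays was not tested.

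**Figure D2:**
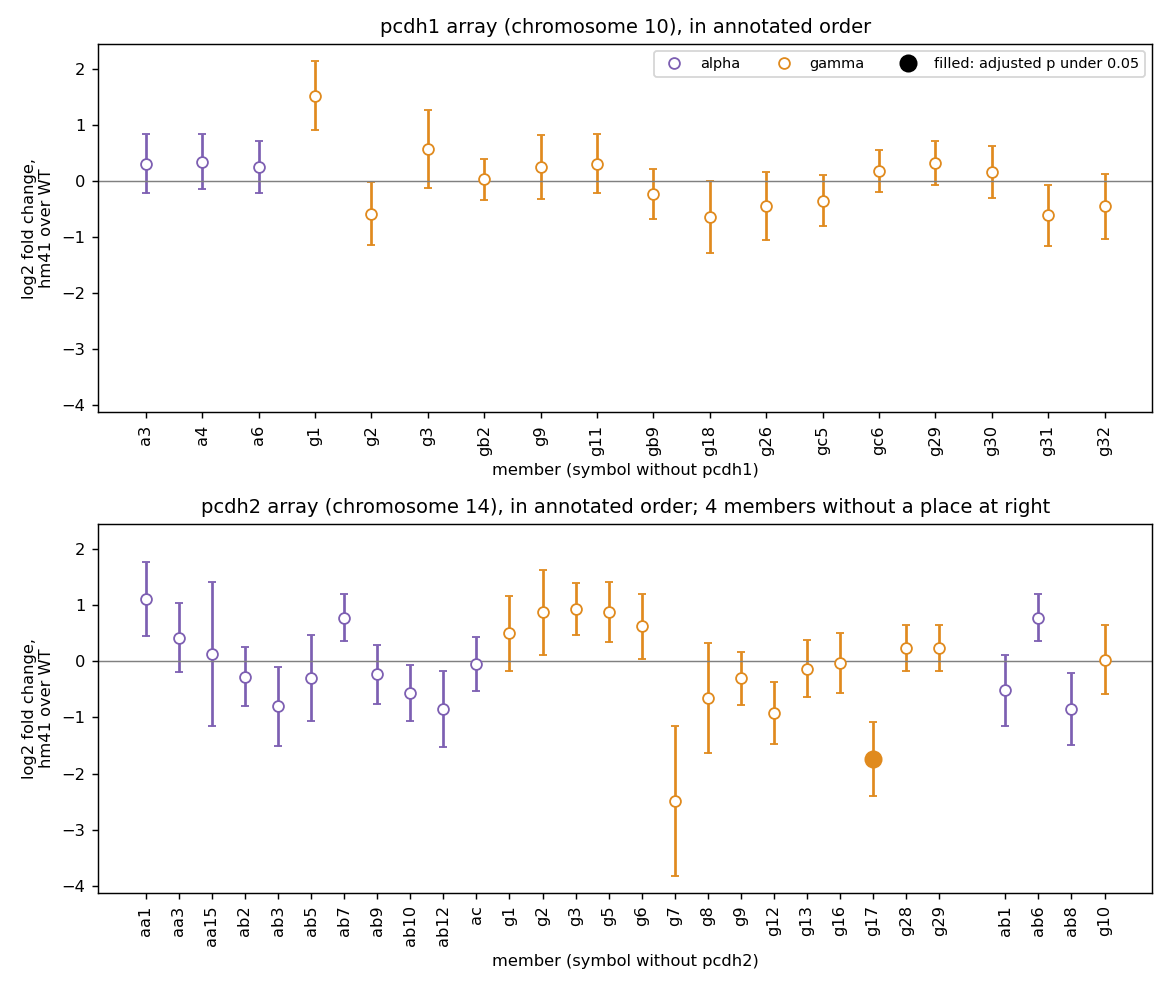
Log2 fold change of hm41 over WT (y axis) with its 95% confidence interval for the 18 pcdh1 members (top) and the 29 pcdh2 members (bottom), ordered within each array by their place in GRCz12tu, with the 4 pcdh2 members that have no match there at the right. Purple marks alpha and orange gamma members, and the filled point is pcdh2g17, the member called. In the pcdh2 gamma group the values lie above 0 at pcdh2g1 to pcdh2g6 and below 0 at the placed members pcdh2g7 to pcdh2g17. Among these, the intervals of pcdh2g1, pcdh2g8, pcdh2g9, pcdh2g13 and pcdh2g16 include 0.

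Library profiles over the members were compared within and between genotypes. Across the 29 pcdh2 members, Pearson's r of log2 normalised counts (pseudocount 1) averaged 0.502 over the 9 pairs of an hm41 with a WT library (range 0.388 to 0.643), while it averaged 0.823 within hm41 (0.765 to 0.866) and 0.734 within WT (0.668 to 0.767, 3 pairs each). Across the 18 pcdh1 members the mean was 0.701 between genotypes (0.552 to 0.863), 0.873 within hm41 (0.836 to 0.934) and 0.815 within WT (0.706 to 0.926), so these ranges overlap while those of the pcdh2 array do not overlap with the pairs between genotypes. Within the pcdh2 array this held for the gamma group, with 0.388 to 0.752 between genotypes, 0.848 to 0.923 within hm41 and 0.785 to 0.869 within WT. It did not hold for the pcdh2 alpha group, where pairs between genotypes (0.028 to 0.571) overlapped those within WT (0.504 to 0.633). Over the 3 pcdh1 alpha members alone the mean was 0.352 between genotypes (-0.998 to 0.973), 0.245 within hm41 (-0.234 to 0.973) and -0.084 within WT (-0.806 to 0.714). Each of these r values rests on 3 members, so no difference can be read from them. Across all 19275 tested genes the means were 0.913 between genotypes, 0.924 within hm41 and 0.920 within WT. Mean levels ran between 5.81 and 37227000 normalised counts over all tested genes, and between 22.9 and 445 over the members. Values of r over such unlike ranges are not comparable. These correlations run across genes, which are not replicates and share libraries and depth, and they carry no test.

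The pcdh2 gamma group held the called member and the 3 most negative fold changes of the pcdh2 array. The member pcdh2g17 had 18.8, 58.2 and 32.9 normalised counts in hm41 69, 70 and 71, and 152, 137.5 and 104 in WT 66, 67 and 68. Every hm41 library lies below every WT library, and the lowest WT library has well above the count of hm41 70, the highest of the mutants. In the deposited table these were 12.1, 76.9 and 21.8 counts in hm41 and 226, 67.9 and 144 in WT. The count of pcdh2g17 was 3.35-fold lower in hm41 (log2 fold change -1.74 ± 0.312, SE; 95% confidence interval -2.40 to -1.09; adjusted p = 0.0414, edgeR, with Benjamini-Hochberg adjustment over all genes). As a share of the pcdh2 gamma counts, which needs no scaling between libraries, pcdh2g17 held 1.12%, 3.28% and 2.21% in hm41 69, 70 and 71 and 8.77%, 8.26% and 7.93% in WT 66, 67 and 68. The call was lost without hm41 69, hm41 71, WT 66 or WT 67 (adjusted p = 0.0723, 0.21, 0.201 and 0.177), where the log2 fold changes were -1.46, -1.64, -1.61 and -1.71. Without hm41 70 the log2 fold change was -2.33. With a term for the libraries rich in LOC110438492 counts (hm41 70, hm41 71 and WT 68) the log2 fold change was -1.80 and the adjusted p 0.0727.

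The most negative fold change was that of pcdh2g7, the member with the fewest counts. It had 0, 11.3 and 7.48 normalised counts in hm41 69, 70 and 71, and 66.5, 30.3 and 21.6 in WT 66, 67 and 68. The groups do not overlap, and the level in WT 66 stands above those of WT 67 and 68. The count of 0 in hm41 69 allows up to 3 counts, or 4.70 normalised counts, by counting error alone. The log2 fold change was -2.49 ± 0.63 (SE, adjusted p = 0.175, edgeR), which did not pass over all genes. It passed with library totals alone (adjusted p = 0.0403) and with no filter on low counts (0.0121), and its value was between -3.36 and -1.85 when 1 library was left out (-3.36 without hm41 70, -1.85 without WT 66). It did not pass when any 1 library was left out (adjusted p = 0.0778 to 0.543, edgeR) or with the LOC110438492 term (0.315).

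Another gamma member below WT in every hm41 library was pcdh2g12, with 39.1, 76.4 and 52.4 normalised counts in hm41 69, 70 and 71 and 104.8, 129 and 96.6 in WT 66, 67 and 68 (log2 fold change -0.92 ± 0.265, SE; adjusted p = 0.204, edgeR). The opposite was seen for pcdh2g3, which had 189, 247 and 233 normalised counts in hm41 69, 70 and 71 and 104.8, 82.9 and 156 in WT 66, 67 and 68. The 3 mutant libraries lie above the 3 WT libraries, WT 68 being the nearest. Its log2 fold change was 0.93 ± 0.22 (SE, adjusted p = 0.134, edgeR), and it passed the threshold without WT 68 (1.22, adjusted p = 0.0256), with library totals alone (1.12, adjusted p = 0.0484) and with no filter on low counts (0.94, adjusted p = 0.0102). It did not pass without any other single library (adjusted p = 0.0976 to 0.395, edgeR) or with the LOC110438492 term (0.126). The next placed member, pcdh2g5, had 144, 129 and 130.2 normalised counts in hm41 69, 70 and 71 and 104, 56.6 and 53.3 in WT 66, 67 and 68 (log2 fold change 0.87 ± 0.256, SE; adjusted p = 0.206). For pcdh2g2, with a log2 fold change of 0.88 ± 0.355 (SE), hm41 71 had 58.4 and overlapped WT 66 and 67 at 66.5 and 66.7.

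Higher and lower members stood apart by position in the gamma group. The 5 members pcdh2g1, pcdh2g2, pcdh2g3, pcdh2g5 and pcdh2g6 follow each other in the order of the placed members. Rows in the span that are not members are left out of this order. All 5 had positive log2 fold changes (0.50 to 0.93). The next 7 in that order, pcdh2g7, pcdh2g8, pcdh2g9, pcdh2g12, pcdh2g13, pcdh2g16 and pcdh2g17, all had negative ones (-2.49 to -0.02), while pcdh2g10, which has no place there, had 0.03. The last in order, the identical pcdh2g28 and pcdh2g29, had 241, 297 and 232 normalised counts each in hm41 69, 70 and 71 and 242.5, 263 and 158 in WT 66, 67 and 68, with a log2 fold change of 0.24 ± 0.2 (SE). The 95% confidence intervals of pcdh2g1, pcdh2g8, pcdh2g9, pcdh2g13 and pcdh2g16 include 0. The signs near 0 are not stable: pcdh2g13, at -0.13, was at 0.11 with library totals alone. Some names in this stretch lie outside the rule for named genes and were added after their values were seen, and so was the division into 2 runs, which therefore carries no test.

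Summed over the run pcdh2g1 to pcdh2g6, there were 689, 594 and 579 normalised counts in hm41 69, 70 and 71 and 417, 311 and 317 in WT 66, 67 and 68. Summed over the 8 members pcdh2g7 to pcdh2g17, there were 499, 586 and 449 in hm41 69, 70 and 71 and 829.6, 827 and 675 in WT 66, 67 and 68. The genotypes do not overlap in either sum. Their opposite directions follow from the division of the runs by the sign of the fold changes. The ratio of the lower-numbered run to the higher-numbered run was 1.38, 1.01 and 1.29 in hm41 69, 70 and 71 and 0.503, 0.377 and 0.470 in WT 66, 67 and 68. It was higher in each hm41 library than in any WT library, for runs that were divided by the sign of their values.

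**Figure D3:**
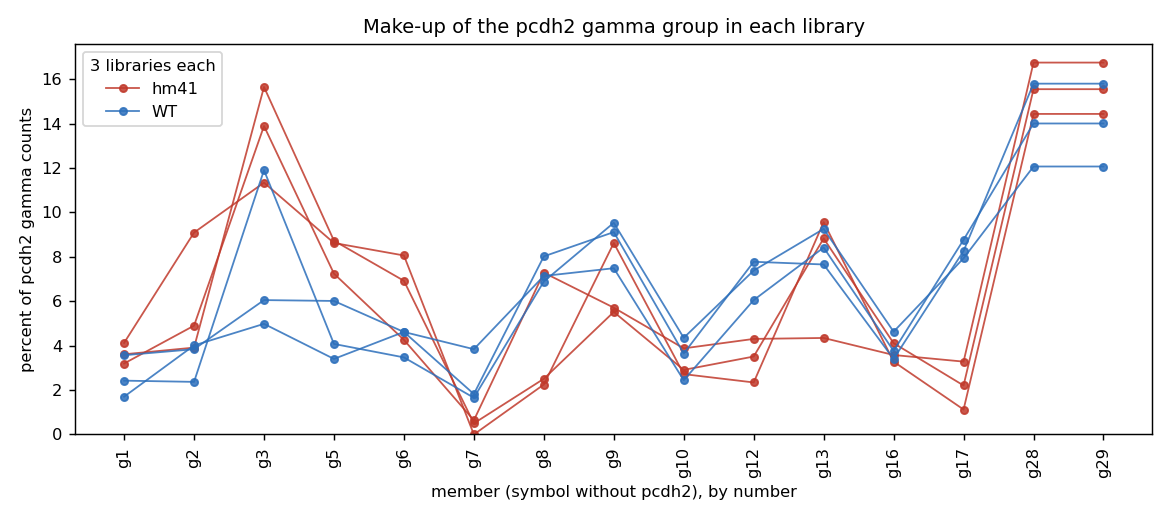
Share of each pcdh2 gamma member in the counts of that group (y axis, percent) by the number in the symbol (x axis), 1 line per library, with hm41 in red and WT in blue. The red lines lie above the blue ones at pcdh2g5, below them at pcdh2g7, pcdh2g12 and pcdh2g17, and cross them at other members. At pcdh2g17, hm41 libraries hold 1.12% to 3.28% and WT libraries 7.93% to 8.77%.

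The pcdh2 alpha group had no called member. The identical rows pcdh2ab6 and pcdh2ab7 each had 169, 160.4 and 153 normalised counts in hm41 69, 70 and 71 and 89.3, 97.1 and 95.9 in WT 66, 67 and 68. The libraries of each genotype are close to each other and the genotypes well apart. Their log2 fold change was 0.78 ± 0.2 (SE, adjusted p = 0.165, edgeR), between 0.74 and 0.82 when 1 library was left out. For pcdh2aa1 there were 114, 65.0 and 83.8 normalised counts in hm41 69, 70 and 71 and 53.7, 42.5 and 24.5 in WT 66, 67 and 68 (log2 fold change 1.11 ± 0.317, SE; adjusted p = 0.204). With library totals alone pcdh2aa1 was called (1.40, adjusted p = 0.0484), but leaving out any 1 library gave adjusted p = 0.300 to 0.382 (edgeR). No overlap was seen there either, nor for pcdh2ab8, which was lower in hm41, with 73.6, 63.5 and 32.9 in hm41 69, 70 and 71 and 78.6, 154 and 87.9 in WT 66, 67 and 68 (-0.85 ± 0.309, SE; adjusted p = 0.331).

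Other alpha members with lower values overlapped between the genotypes. These were pcdh2ab12 (log2 fold change -0.85 ± 0.322, SE), pcdh2ab3 (-0.80 ± 0.34) and pcdh2ab10 (-0.56 ± 0.242), at adjusted p-values of 0.352, 0.421 and 0.423 by edgeR. The single member of its type, pcdh2ac, had 157, 96.1 and 178 normalised counts in hm41 69, 70 and 71 and 163, 123 and 146 in WT 66, 67 and 68, and its log2 fold change was estimated at -0.04 with a 95% interval of -0.52 to 0.44. The widest spread among the alpha members was that of pcdh2aa15, with 240, 174 and 109 in hm41 69, 70 and 71 and 272, 105 and 87.9 in WT 66, 67 and 68 (log2 fold change 0.13, 95% confidence interval -1.15 to 1.42). Both genes overlap between the genotypes, and the interval of pcdh2aa15 allows a change of over 1 log2 unit either way. For pcdh2aa3, named after its values were seen, the log2 fold change was 0.42 ± 0.292 (SE). Of the 14 alpha members 5 had positive and 9 negative values, with a median of -0.25.

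No pcdh1 member was called, and the largest fold change of that array was that of pcdh1g1. It had 182, 163 and 154 normalised counts in hm41 69, 70 and 71 and 47.7, 26.3 and 88.6 in WT 66, 67 and 68. The hm41 libraries agree closely and lie above all WT libraries, which spread over a wider range. It was higher in hm41 by a log2 fold change of 1.53 ± 0.295 (SE; 95% interval 0.90 to 2.15), with an adjusted p of 0.0985 by edgeR, so it was not called. Without WT 68 it was called at 2.06 (adjusted p = 0.00115), with no filter on low counts at 1.53 (adjusted p = 0.000208) and with library totals alone at 1.71 (adjusted p = 0.000155). It was not called without any other single library (adjusted p = 0.11 to 0.314, edgeR) or with the LOC110438492 term (0.0626). Within the pcdh1 gamma counts its share was 7.01% ± 0.431 in hm41 and 2.48% ± 1.67 in WT (SD, n = 3 each).

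The next 2 members in order were not called and had fold changes of opposite sign, each without overlap. For pcdh1g2 there were 67.3, 57.5 and 53.9 normalised counts in hm41 69, 70 and 71 and 73.9, 68.8 and 120.4 in WT 66, 67 and 68 (log2 fold change -0.59 ± 0.269, SE; adjusted p = 0.465, edgeR). For pcdh1g3 there were 65.8, 43.9 and 44.9 in hm41 69, 70 and 71 and 41.0, 20.2 and 37.5 in WT 66, 67 and 68 (0.57 ± 0.333, SE; adjusted p = 0.586). In both genes the nearest libraries of the 2 genotypes are close together. Lower values with overlap were seen for pcdh1g18 (-0.64 ± 0.311, SE; adjusted p = 0.491) and pcdh1g31 (-0.61 ± 0.261, SE; adjusted p = 0.422).

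**Figure D4:**
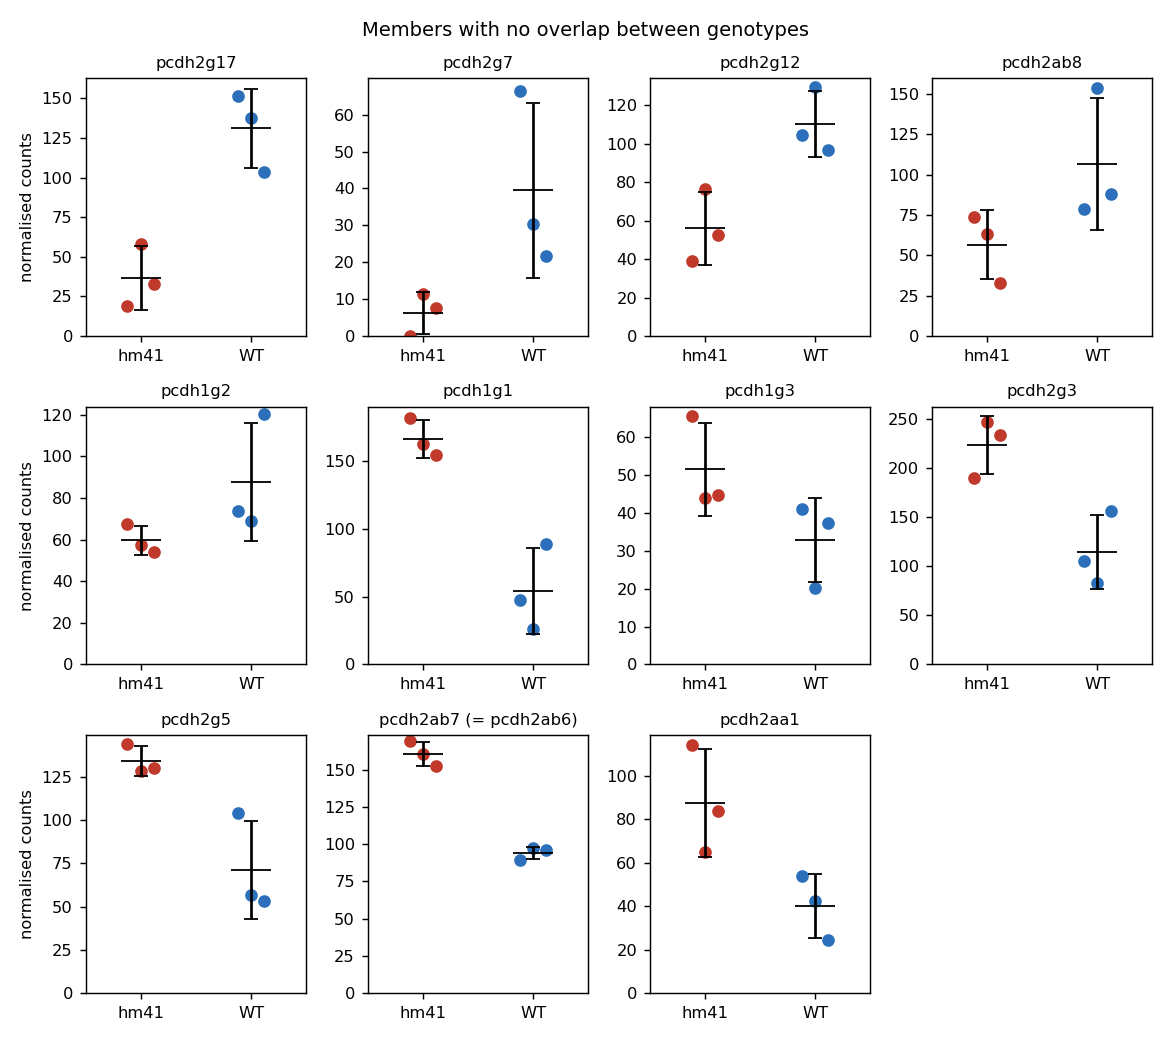
Normalised counts (y axes, from 0) of the 12 members with no overlap between genotypes, with the identical pcdh2ab6 and pcdh2ab7 sharing a panel. Points are the 3 libraries of hm41 (red, left) and WT (blue, right), and bars the mean ± SD. The first 5 panels show members lower in hm41 (pcdh2g17, pcdh2g7, pcdh2g12, pcdh2ab8, pcdh1g2) and the other 6 members higher in hm41.

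Among the pcdh1 gamma members with the most counts none was called or lacked overlap. The member pcdh1g11 had 722, 464 and 296 normalised counts in hm41 69, 70 and 71 and 409, 384 and 397 in WT 66, 67 and 68, so that hm41 libraries spread widely around tight WT values (log2 fold change 0.31, 95% interval -0.21 to 0.84). For pcdh1gb2 it was 0.03 (95% interval -0.33 to 0.39), for pcdh1gc6 0.18 (-0.20 to 0.56) and for pcdh1g29 0.33 (-0.06 to 0.72). All 3 alpha members had small positive values, 0.31 for pcdh1a3 (95% confidence interval -0.21 to 0.84), 0.35 for pcdh1a4 (-0.14 to 0.83) and 0.26 for pcdh1a6 (-0.21 to 0.72), and each overlapped between the genotypes. The 4 rows with the most counts held 42.1% of the pcdh1 counts and 27.5% of the pcdh2 counts.

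The 17 non-clustered protocadherin genes, which stand alone in the genome and are not spliced to shared exons, included no called gene by edgeR. The unadjusted p was under 0.05 for 1 higher and 3 lower genes, which is 23.5% against 10.4% of all tested genes. No overlap was seen for 3 genes of the list, or 17.6% against 16.5% of all tested genes. The list median was -0.06 on the log2 scale. The 4 genes with the smallest p were pcdh15b (-0.78 ± 0.251, SE; adjusted p = 0.253) and pcdh15a (-0.44 ± 0.194, SE), which encode a tip link protein of sensory hair cells, pcdh9 (-0.58 ± 0.2, SE) and pcdh12 (0.54 ± 0.25, SE), a protocadherin of endothelium in mammals. Of these only pcdh12 did not overlap, with 78.5 ± 6.17 normalised counts in hm41 and 54.0 ± 3.21 in WT (SD, n = 3 each). For pcdh20 the log2 fold change was -0.38 ± 0.251 (SE, adjusted p = 0.644).

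Genes for CTCF, cohesin, DNA methylation and silencing factors, several of which act on clustered protocadherin promoters in mammals, showed no called member among 30 tested, and 1 lower gene at an unadjusted p under 0.05 (list median -0.09). That gene was smchd1, a silencing factor of clustered protocadherins in mice (log2 fold change -0.48 ± 0.22, SE; adjusted p = 0.465, edgeR). The following were the DNA methyltransferase dnmt3bb.1 (-0.42 ± 0.212, SE), the cohesin release factor waplb (-0.33 ± 0.17) and the cohesin loader nipbla (-0.31 ± 0.161). Of these, dnmt3bb.1 was lower in each hm41 library than in any WT library. Over the list, 3.33% of the genes had an unadjusted p under 0.05, against 10.4% of all tested genes. No overlap was seen for 2 of the 30, or 6.67% against 16.5% of all tested genes.

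Among 31 genes for kinases, cytoskeletal partners and proteases that act with protocadherins, 0 were called by edgeR and 3 were higher at an unadjusted p under 0.05 (list median 0.05). These were cyfip2, of the WAVE actin regulatory complex (log2 fold change 0.42 ± 0.165, SE; adjusted p = 0.379), and the membrane-bound actin regulators marcksa (0.59 ± 0.246) and marcksb (0.34 ± 0.158). None of the 3 overlapped between the genotypes. Over this list, 9.68% of the genes had an unadjusted p under 0.05, against 10.4% of all tested genes. No overlap was seen for 5 of the 31, or 16.1% against 16.5% of all tested genes, so both shares are near those of all genes. The kinase gene csnk1g1 had 0.37 ± 0.18. Of 32 classical cadherin and neuronal adhesion genes tested 0 were called, with 4 higher and 3 lower at an unadjusted p under 0.05 (list median -0.06). That is 21.9% against 10.4% of all tested genes. No overlap was seen for 5 of these genes, or 15.6% against 16.5% of all tested genes. Lower values were those of celsr1a, an adhesion receptor of planar polarity (-0.48 ± 0.169, SE; adjusted p = 0.304), and of the synaptic adhesion gene nlgn1 (-0.50 ± 0.21), and higher ones those of its relatives nlgn2b (0.41 ± 0.172) and nlgn2a (0.40 ± 0.175).

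The genes around the arrays were read from the same fit. Of 24 tested genes among the 20 nearest on either side of the pcdh2 array, 1 was called, csf1ra, a receptor tyrosine kinase of macrophages and yellow pigment cells, with 9.39, 6.81 and 8.98 normalised counts in hm41 69, 70 and 71 and 63.1, 78.9 and 111 in WT 66, 67 and 68 (log2 fold change -3.36 ± 0.378, SE; adjusted p = 0.000171, edgeR). The unadjusted p was under 0.05 for 4 of the 24, 1 higher and 3 lower, which is 16.7% against 10.4% of all tested genes, and 7 had no overlap, which is 29.2% against 16.5%. The median log2 fold change of the 24 was -0.21. Besides csf1ra, those with an unadjusted p under 0.05 were si:ch73-233f7.1 (-0.68 ± 0.195, SE), LOC103908739 (0.57 ± 0.181) and slc35a4 (-0.52 ± 0.212), of which slc35a4 overlapped between the genotypes. Around the pcdh1 array 0 of 20 tested genes were called, 2 (10.0%) were higher at an unadjusted p under 0.05, and the median was 0.10. Of these 20 genes 4 had no overlap, which is 20.0% against 16.5% of all tested genes. The flanking genes include pcdhb, a protocadherin by its symbol that the naming rule does not take in. Another 9 rows of the table lie inside the span of the pcdh2 array and are not members by their names. What they encode was not examined, so some may belong to the array. Of these 9 rows, 8 were tested and 1, LOC108192086, was called. It had 0 counts in each hm41 library and 62.3, 18.9 and 74.0 counts in WT 66, 67 and 68 (adjusted p = 0.000171, edgeR), and the count of 0 allows up to 3 counts in a library.

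Marker lists of head cell types were summed to show what else differed between the pools. Like the neuron list, those of radial glia (8034 to 8999 normalised counts in hm41, 5524 to 7311 in WT), photoreceptors (21398 to 22060.0 in hm41, 9969 to 14582 in WT) and oligodendrocytes (1406 to 1892 in hm41, 1143 to 1386 in WT) were higher in every hm41 library. The epidermis list was lower (46640 to 54189 in hm41, 67491 to 77738 in WT). Lists of microglia, endothelium, muscle and lens overlapped. In hm41 they had 759 to 1359, 449 to 565, 33455 to 41222 and 4774 to 8264. In WT they had 879.6 to 1053, 396 to 541, 23232 to 44111 and 1046 to 6567. A sum is led by its largest row, which averaged 828 normalised counts over the libraries for microglia and 39333 for epidermis. Of the 7 tested microglia genes, 4 had negative and 3 positive fold changes, and the 2 without overlap were lower in hm41. Of the 10 tested epidermis genes, 8 had negative and 2 positive fold changes. By edgeR 0 of 14 neuron, 0 of 10 radial glia, 1 of 9 photoreceptor (opn1sw1), 0 of 9 oligodendrocyte, 1 of 7 microglia (csf1ra), 0 of 8 endothelium, 0 of 10 epidermis, 0 of 10 muscle and 0 of 9 lens genes tested were called. At an unadjusted p under 0.05 these lists had 7, 4, 5, 1, 1, 2, 4, 2 and 1 genes in that order, against 10.4% of all tested genes. For oligodendrocytes and lens that is 11.1%, close to this share. Whether these shifts bear on single protocadherin members was not tested.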

How the data were processed

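The authors deposited expected counts per gene, estimated read counts not scaled between libraries, for 6 libraries of pooled heads. Per the labels' protocols, total RNA went into libraries made with a kit that keeps strand. Per the submitters' processing notes, TopHat, Bowtie2 and RSEM were used and the build was GRCz11; roles and versions are left unsaid. The annotation, the trimming, the strand setting and the treatment of reads that match several genes were not given in the sources used here. Expected counts were rounded to whole numbers and tested with edgeR 4.0.16 in R 4.3.3 (quasi-likelihood F-test, robust, TMM, filterByExpr, no covariate, two-sided), with Benjamini-Hochberg adjustment over 19275 genes at 0.05. Genes past this are called. The method was also tested on simulated data. Alternatives were DESeq2 1.42.0, its size factors, library totals, no filter on low counts, a term for LOC110438492 (libraries above 1000 counts), library sizes without rows above 1% of counts, and leaving out each library.

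Levels are means ± SD of 3 libraries. The floor for a count of 0 is 3 counts, and covers counting error only. Members, lists and tests were chosen with earlier results of these data known. Named are called members, in each group the 4 with the most counts and the 3 largest and 3 smallest fold changes, the 6 smallest p, for other lists called genes and the 4 smallest p, and spock1. The 13 lists held 209 symbols, of which 202 matched a row. Order and chromosomes come from the RefSeq gene table of GRCz12tu, since no sequence of GRCz11 was used here. No label pairs the libraries or gives a batch.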

Additional observations from a re-analysis of the deposited data

How the results depend on the processing

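The number of called genes was 11 of 19275 tested genes, and 47 with library totals alone and 19 with a term for LOC110438492. It was 131 of 27742 genes with no filter on low counts. With DESeq2 it was 191 of the 3662 genes that were given an adjusted p, so these counts are over different sets of genes. With edgeR the number ranged between 6 and 44 when 1 library was left out (6 without hm41 70, 20 without hm41 69, 44 without WT 68). Of the members 1 was called, against 5 with library totals alone, 4 with no filter, 0 with the LOC110438492 term and 0 to 3 without 1 library (0 without hm41 69, hm41 71, WT 66 or WT 67, 3 without WT 68). DESeq2 gave an adjusted p to 5 of the 47 members and to neither pcdh2g17 nor csf1ra, so it gives no count of members or flanking genes. Its unadjusted p was 1.58e-06 for pcdh2g17 and 2.96e-06 for pcdh1g1. The share of pcdh2 members at an unadjusted p under 0.05 was 34.5% to 51.7% without 1 library, that of pcdh1 members 11.1% to 22.2% and that of all genes 7.90% to 11.4%. By DESeq2 these shares were 41.4%, 5.56% and 5.99%, the last over 27742 genes without the filter on low counts. The log2 ratios of the sums were between 0.18 and 0.42 (pcdh1 alpha), -0.03 and 0.18 (pcdh1 gamma), -0.17 and 0.07 (pcdh2 alpha) and -0.05 and 0.16 (pcdh2 gamma) without 1 library. With library totals they were 0.55, 0.30, 0.21 and 0.31. Of the 47 members 36 kept the sign of their fold change in all 12 alternatives. Named members whose sign turned without 1 library, with their lowest and highest values, were pcdh1g11 (-0.049 to 0.59), pcdh1gb2 (-0.10 to 0.12), pcdh2aa15 (-0.18 to 0.87), pcdh2ac (-0.22 to 0.20) and pcdh2g13 (-0.37 to 0.14). With library totals pcdh2ac was at 0.18 and pcdh2g13 at 0.11. The causes were not tested. No paired analysis was possible because the labels do not pair the 6 libraries. Depth limits all single members, whose mean levels ran between 22.9 and 445 normalised counts.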
